A study of Mus musculus with 24 samples.

Results

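Glucose enters a cell through facilitative transporters, is trapped by hexokinase and is broken down through the glycolytic steps to pyruvate, which is either reduced to lactate and exported or carried into the mitochondrion and oxidised by the pyruvate dehydrogenase complex. Most of these steps have several isozymes from separate genes. Growing and hypoxic cells are known for the GLUT1, HK2, PFKP, LDHA and MCT4 forms, and striated muscle for GLUT4, PFKM, PGAM2, ENO3 and the muscle form of pyruvate kinase. The fetal heart is known to rely on glucose and lactate, and after birth the heart turns to fatty acid oxidation, with pyruvate dehydrogenase kinases restraining the entry of pyruvate.

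The genes described here are 34 listed genes of glucose transport, glycolysis, lactate transport and the pyruvate dehydrogenase switch, found by their symbols in the platform's gene annotation. Of these, 30 were measured at the gene level among 19920 genes with a single symbol. Gapdh (glyceraldehyde-3-phosphate dehydrogenase) lay only on transcript clusters that carry several gene symbols, so no value is named for it. Gpi1 (glucose-6-phosphate isomerase), Eno1 (the general enolase) and Pfkfb1 (a bifunctional fructose-2,6-bisphosphate enzyme) had no named gene-level row and are given by the median of their exon-level probe sets, 7, 6 and 15 in number. Hk1, Pgk1, Pgam1, Pkm and Ldhb each had several transcript clusters, and the cluster with the most exon-level probe sets of the gene was used.

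The series followed mouse heart formation in culture and in the animal with a whole-transcript Affymetrix gene array, and its title concerns alternative splicing. In culture, ES cells (embryonic stem cells, undifferentiated, day 0) were carried to embryonic bodies (EB in the plots, day 7) and cardiac bodies (CB in the plots, day 14) in a DMEM medium with serum. The animal groups were whole hearts, taken late in gestation (E17.5), on postnatal day 1 (P1) or in adulthood, at an age the labels do not state. Each of the 6 groups had 2 arrays of total RNA depleted of ribosomal RNA; no genotype, strain, line or drug is given in the labels. The labels do not say whether the arrays of a group came from separate cultures or animals, or how many hearts were pooled, so the p-values below measure only the spread between these arrays, which may be technical. The protocol text names only the E17.5 and P1 hearts, so whether the adult arrays were run together with the others is not given in the sources used here, and an array batch and the adult stage cannot be told apart.

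Values are log2 signals, on which a step of 1 is a factor of 2, and levels are compared between groups for the same gene, never between genes. A gene was called changed at a limma adjusted p under 0.05 (Benjamini-Hochberg over all 19920 genes of a comparison), and ± after a change is its standard error. The tables give no detection call. Group means under the median gene's 6.05 are not shown to be above background, so changes against them are differences of signal whose fold is uncertain. Among the members measured at the gene level these are Slc2a4 in ES cells, Pgam2 in ES cells and embryonic bodies, Slc2a3 and Aldoc in adults, Pfkfb4 in cardiac bodies and adults, and Eno2 in all but the 2 kinds of bodies. Arrays of a group correlated at 0.971 to 0.993 over genes. The 10 cardiomyocyte markers had a median log2 signal of 5.21 to 5.57 in ES cells and embryonic bodies, 12.13 and 11.62 in cardiac bodies and 12.38 to 13.06 in hearts. Among these markers the adult arrays differed widely in Myl7 (5.42 and 11.27) and Nppa (10.10 and 12.79). The part of this difference between the adult samples in the adult changes was not tested. The 8 pluripotency markers had a median of 11.58 and 11.77 in ES cells, 8.09 and 8.42 in embryonic bodies and 10.83 and 11.07 in cardiac bodies, where Pou5f1 read 11.02 and 11.11. All 8 were called lower in embryonic bodies than in ES cells and all 8 higher in cardiac than in embryonic bodies. The 6 leukocyte markers were at 5.87 to 6.03 in E17.5 and P1 hearts and at 7.15 and 7.40 in adult hearts. The 7 endothelial markers were at 5.16 and 5.47 in cardiac bodies and at 9.02 to 9.52 in hearts. The 6 endoderm and liver markers were at 5.11 and 4.82 in ES cells and 6.46 and 5.92 in embryonic bodies. They were at 7.00 and 7.05 in cardiac bodies, where Afp read 10.08 and 9.97, and at 4.95 to 5.63 in hearts. Against E17.5 hearts, 3 of these 6 were called higher in cardiac bodies and 1 lower. The 10 skeletal muscle markers had a median of 4.99 to 5.77 in all groups. In these bulk samples fewer cells of a type and less RNA per cell cannot be told apart.

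Between 7 and 21 of the 30 genes were called in each comparison, with calls in both directions each time. Comparisons that share a group share its arrays, so a change into and out of embryonic bodies rests on the same 2 embryonic body arrays. The counts of calls, with the share of all genes called for comparison, were as follows. Between embryonic bodies and ES cells 6 rose and 8 fell (20.6% of all genes were called, 12% higher and 8.63% lower). From embryonic bodies to cardiac bodies 9 rose and 2 fell (11.9% of all genes, 5.45% higher and 6.41% lower). Cardiac bodies against ES cells had 7 higher and 3 lower (9.78% of all genes, 6.18% higher and 3.6% lower). From E17.5 to P1, 1 rose and 6 fell (5.05% of all genes, 2.06% higher and 2.99% lower). From P1 to adult 4 rose and 10 fell (30.1% of all genes, 15.5% higher and 14.6% lower). Adult hearts against E17.5 had 4 higher and 17 lower (35.9% of all genes, 18.0% higher and 17.9% lower). In that comparison leukocyte markers were higher (6 of 6, median change 1.45), and fibroblast (4 of 7, with 1 higher, median -0.72), smooth muscle (3 of 4, median -1.45) and red cell markers (3 of 6, median -1.32) were lower. From P1 to adult the leukocyte (6 of 6, median 1.26), fibroblast (4 of 7 lower and 1 higher, median -0.997) and smooth muscle markers (3 of 4, median -1.51) moved the same way, and the part of these cell types in the adult changes was not tested. Cardiac bodies against E17.5 hearts had 2 higher and 13 lower (23.7% of all genes, 12% higher and 11.6% lower). There the cardiomyocyte (6 of 10, with 0 higher, median change -1.06), fibroblast (7 of 7, median -4.61) and endothelial markers (7 of 7, median -3.90) were lower. The pluripotency markers were higher (8 of 8, median 5.885), and the part of these cell types in the members' changes was not tested. The members' median change was -0.25 from E17.5 to P1, -0.41 from P1 to adult and -0.69 from E17.5 to adult, against 0.01, 0.04 and 0.05 over all genes. In the F test over the 6 groups, 28 of the 30 members differed, against 59.5% of all genes, and Pfkfb3 and Pfkfb4 did not pass.

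**Figure D1:**
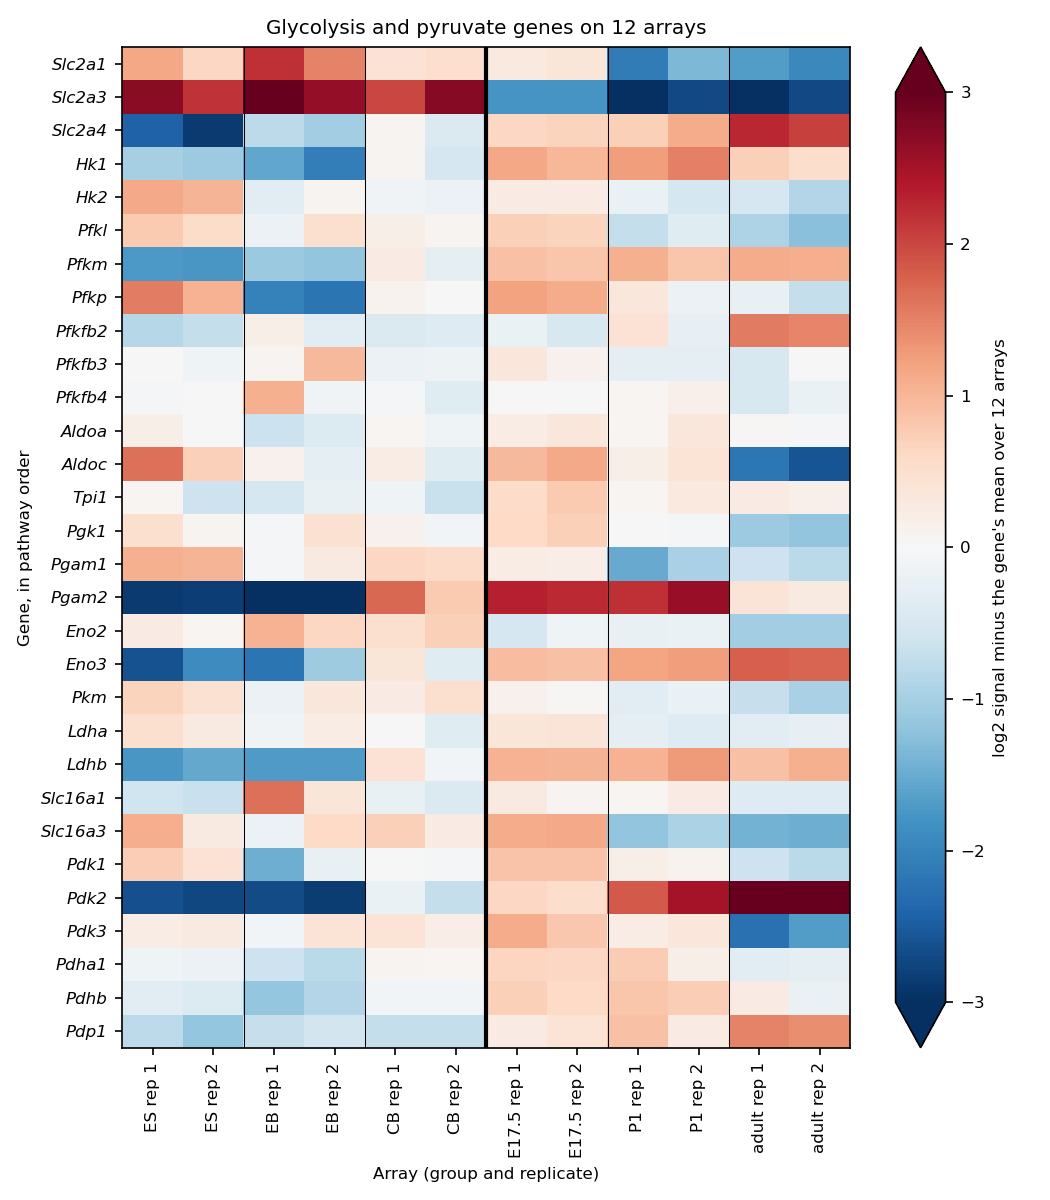
Log2 signal of each of the 30 genes on each of the 12 arrays, drawn as the difference from that gene's mean over the arrays, with genes as rows in pathway order and arrays as columns by group. By group mean, 8 genes were highest in E17.5 hearts and 11 were lowest in adult hearts.

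Among the glucose transporters, GLUT4 rose along both series and GLUT1 and GLUT3 fell in the hearts. Slc2a1 encodes GLUT1, the transporter of basal glucose uptake. It read 11.54 and 11.01 in ES cells, 12.58 and 11.88 in embryonic bodies, 10.83 and 10.90 in cardiac bodies, 10.67 and 10.74 in E17.5 hearts, 8.28 and 9.03 in P1 hearts and 8.70 and 8.44 in adult hearts. All culture and E17.5 arrays were above all postnatal arrays. Slc2a1 rose by 0.96 ± 0.28 from ES cells to embryonic bodies (adjusted p = 0.0297), fell by 1.37 ± 0.28 to cardiac bodies (adjusted p = 0.00707) and fell by 2.05 ± 0.28 from E17.5 to P1 (adjusted p = 0.00108). Its change from P1 to adult was -0.08 ± 0.28 (adjusted p = 0.862). The rise ended without ES replicate 2 or without embryonic body replicate 1 (adjusted p up to 0.257) and with the exon-level median, and the fall to cardiac bodies ended without embryonic body replicate 1 or cardiac body replicate 1 (adjusted p up to 0.0661). Red cell markers moved with the fall at birth: the median of the 6 measured was 6.76 and 8.15 at E17.5 and 5.02 and 5.16 at P1, with 2 of the 6 called lower, and Alas2 was at 10.49 and 11.61 and then at 7.46 and 8.62; their part in the fall of Slc2a1 was not tested.

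Slc2a3, which encodes the high-affinity transporter GLUT3, separated the cultures from the hearts. It read 12.02 and 11.49 in ES cells, 12.97 and 11.96 in embryonic bodies, 11.32 and 12.04 in cardiac bodies, 7.53 and 7.55 at E17.5, 6.29 and 6.61 at P1 and 5.36 and 6.60 in adults. Cardiac bodies stood 4.14 ± 0.40 above E17.5 hearts (adjusted p = 1.73e-05), the largest change of any member in that comparison. All 8 pluripotency markers were called higher and all 7 endothelial markers lower in the same comparison, and their part in it was not tested. Adult hearts were 1.56 ± 0.40 below E17.5 hearts by Slc2a3 (adjusted p = 0.00921), a call that ended without E17.5 replicate 1, E17.5 replicate 2 or adult replicate 1 (adjusted p up to 0.117).

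Slc2a4 encodes GLUT4, the insulin-responsive transporter of muscle and fat. It read 5.78 and 5.35 in ES cells, 7.44 and 7.17 in embryonic bodies, 8.31 and 7.79 in cardiac bodies, 8.84 and 8.88 at E17.5, 8.94 and 9.34 at P1 and 10.48 and 10.27 in adults. The order of the group means followed the order of the stages with no overlap between neighbouring groups. The step from ES cells to embryonic bodies was 1.74 ± 0.23 (adjusted p = 0.000161) and that from P1 to adult was 1.24 ± 0.23 (adjusted p = 0.00134). Changes of 0.74 ± 0.23 from embryonic bodies to cardiac bodies (adjusted p = 0.0552) and 0.28 ± 0.23 from E17.5 to P1 (adjusted p = 0.637) did not pass. The former passed with quantile normalization (adjusted p = 0.0351) and with low genes filtered out (adjusted p = 0.0451). The log ratio of Slc2a4 to Slc2a1, set to 0 in ES cells, was 0.78 in embryonic bodies, 2.89 in cardiac bodies, 3.85 at E17.5, 6.18 at P1 and 7.51 in adulthood. Cardiac bodies were 0.81 ± 0.23 below E17.5 hearts in Slc2a4 (adjusted p = 0.0208), which ended without cardiac body replicate 2 or either E17.5 array (adjusted p up to 0.226).

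The hexokinases, which phosphorylate glucose to glucose-6-phosphate, followed different courses. Hk2, the muscle form that many growing cells use, read 10.41 and 10.29 in ES cells, 8.92 and 9.35 in embryonic bodies, 9.16 and 9.09 in cardiac bodies, 9.52 and 9.50 at E17.5, 9.07 and 8.74 at P1 and 8.75 and 8.39 in adults. Hk1, the widely expressed form, read 7.72 and 7.63, then 7.16 and 6.64, then 8.81 and 8.21 in the cultures in the same order, and 9.89 and 9.72 at E17.5, 9.98 and 10.23 at P1 and 9.43 and 9.26 in adults. Hk2 was highest in both ES arrays and Hk1 lowest in both embryonic body arrays. Hk2 fell by 1.22 ± 0.20 from ES cells to embryonic bodies (adjusted p = 0.000829) and was 1.23 ± 0.20 lower in cardiac bodies than in ES cells (adjusted p = 0.00175). Hk2 was 0.94 ± 0.20 lower in adult than in E17.5 hearts (adjusted p = 0.0027), a call lost with the exon-level median (adjusted p = 0.11). The Hk2 change was -0.61 ± 0.20 from E17.5 to P1 (adjusted p = 0.11) and -0.33 ± 0.20 from P1 to adult (adjusted p = 0.247).

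Hk1 rose by 1.61 ± 0.23 from embryonic to cardiac bodies (adjusted p = 0.000577) and was 1.30 ± 0.23 lower in cardiac bodies than in E17.5 hearts (adjusted p = 0.00135). It fell by 0.77 ± 0.23 from ES cells to embryonic bodies (adjusted p = 0.0305) and by 0.76 ± 0.23 from P1 to adult (adjusted p = 0.0248), and cardiac bodies were 0.83 ± 0.23 above ES cells (adjusted p = 0.0382). Its change of 0.30 ± 0.23 from E17.5 to P1 did not pass (adjusted p = 0.603). The log ratio of Hk2 to Hk1, set to 0 in ES cells, was -2.06 in cardiac bodies, -2.97 at E17.5, -3.88 at P1 and -3.45 in adulthood. These Hk1 values depend on the transcript cluster: the Hk1 cluster with the highest mean gave changes of 0.05, -0.28, -0.24 and 0.13 in the comparisons of embryonic bodies with ES cells, cardiac with embryonic bodies, cardiac bodies with ES cells and cardiac bodies with E17.5 hearts, none of them called. That cluster held 0 exon-level probe sets named Hk1, so it is not shown to measure Hk1, and it enters the mean of all clusters given below. The fall to embryonic bodies also ended without either ES array or embryonic body replicate 2 (adjusted p up to 0.233), the rise over ES cells without cardiac body replicate 1 and 6 other single arrays (adjusted p up to 0.362), and the fall to adults without P1 replicate 2 or either adult array (adjusted p up to 0.125). All of these calls were lost with the exon-level median (adjusted p = 0.319, 0.12 and 0.173). The fall to embryonic bodies and the rise over ES cells were also lost with the mean of all clusters (adjusted p = 0.161 and 0.357). From E17.5 to adult Hk1 changed by -0.46 ± 0.23 (adjusted p = 0.14). That change was called with the mean of all clusters (-0.87, adjusted p = 0.00139) and with the highest-mean cluster (-1.27, adjusted p = 8.61e-05).

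**Figure D2:**
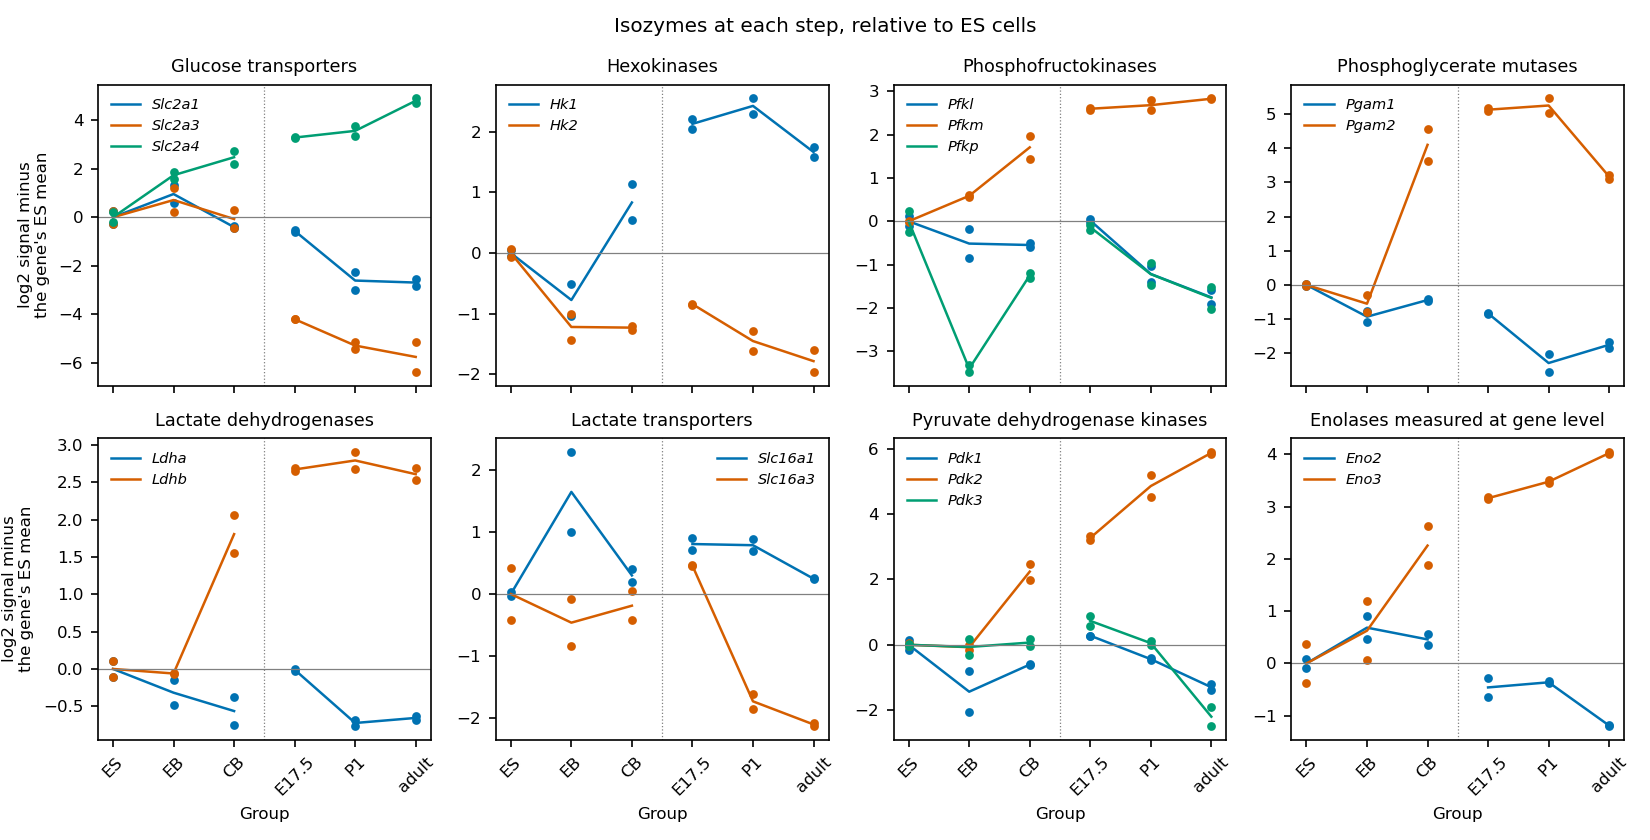
Log2 signal minus the same gene's ES mean (y axis) by group (x axis), 1 panel a step, with points for arrays and lines for group means, broken between cultures and hearts. Slc2a4 climbed from a mean signal of 5.57 in ES cells to 10.38 in adult hearts while Slc2a1 went from 11.27 to 8.57.

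Phosphofructokinase commits glucose to glycolysis, and its muscle form rose in culture. Pfkm read 8.60 and 8.58 in ES cells, 9.20 and 9.14 in embryonic bodies, 10.57 and 10.02 in cardiac bodies and 11.15 to 11.43 in all hearts. It was 1.71 ± 0.19 higher in cardiac bodies than in ES cells (adjusted p = 0.000101) and 0.89 ± 0.19 lower there than in E17.5 hearts (adjusted p = 0.00459), while from E17.5 to adult it changed by 0.23 ± 0.19 (adjusted p = 0.39). Pfkp, the platelet form, dropped and returned: 10.72 and 10.23 in ES cells, 7.15 and 7.00 in embryonic bodies and 9.28 and 9.17 in cardiac bodies, then 10.40 and 10.28 at E17.5, 9.51 and 9.00 at P1 and 8.96 and 8.46 in adults. Its fall of 3.40 ± 0.23 to embryonic bodies was the largest of any member in that comparison (adjusted p = 1.31e-06), and it rose by 2.15 ± 0.23 to cardiac bodies (adjusted p = 7.51e-05). The pluripotency markers fell and rose at the same steps (median changes -3.44 and 2.49), and their part in the Pfkp changes was not tested. Pfkp was lower by 1.08 ± 0.23 at P1 than at E17.5 (adjusted p = 0.0192) and by 1.63 ± 0.23 in adults than at E17.5 (adjusted p = 0.000157). Pfkl, the liver form, read 9.98 and 9.92 at E17.5, 8.53 and 8.89 at P1 and 8.34 and 8.01 in adults, with a fall of 1.23 ± 0.23 at birth (adjusted p = 0.00747) and of 1.77 ± 0.23 from E17.5 to adult (adjusted p = 6.4e-05). The P1 falls of Pfkl and Pfkp ended without either E17.5 array (adjusted p up to 0.082 and 0.162), and that of Pfkp also without P1 replicate 2. In Pfkm, the call against E17.5 hearts ended without cardiac body replicate 2 (adjusted p = 0.0711).

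The bifunctional enzymes that set fructose-2,6-bisphosphate, the activator of phosphofructokinase, differed by isoform. Pfkfb2, the heart isoform, read 6.80 and 6.93 in ES cells, 7.82 and 7.33 in embryonic bodies, 7.22 and 7.26 in cardiac bodies, 7.46 and 7.18 at E17.5, 8.08 and 7.40 at P1 and 9.20 and 9.13 in adults. Both adult arrays were above all others. Its rise was 1.42 ± 0.23 from P1 to adult (adjusted p = 0.000641) and 1.84 ± 0.23 from E17.5 to adult (adjusted p = 6.16e-05). The hypoxia-induced Pfkfb3 (6.20 to 7.65 over all arrays) and Pfkfb4 (5.66 to 7.23) were called by limma in none of the 7 comparisons. Their unadjusted p was under 0.05 in 2 comparisons for Pfkfb3 and in 1 for Pfkfb4. By exon-level median, Pfkfb1 read 8.16 and 8.11 in ES cells, 8.51 and 8.06 in embryonic bodies and 7.49 and 7.65 in cardiac bodies. It read 5.86 to 6.09 in E17.5 and P1 hearts and 7.19 and 8.40 in adults. The change from E17.5 to adult was 1.82 ± 0.33 (adjusted p = 0.000882, with 34.2% of 16891 genes called by that summary). Cardiac bodies were 1.59 ± 0.33 above E17.5 hearts (adjusted p = 0.00391, with 21.7% of genes called). The E17.5 and P1 means, 5.975 and 6.011, were under the median probe set's 6.67, so the fold of these changes is uncertain. The adult arrays of Pfkfb1 differed by more than those of any other heart group.

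Between fructose-bisphosphate and phosphoenolpyruvate, Pgk1, Pgam1 and Eno1 fell in the hearts, and the muscle forms of the mutase and enolase rose in cardiac bodies. Aldoa, the muscle and general aldolase, stayed between 11.64 and 12.62 on all arrays and was called only for a fall of 0.61 ± 0.18 to embryonic bodies (adjusted p = 0.0264). Aldoc, the brain aldolase, read 8.98 and 8.05 in ES cells, 7.47 and 7.06 in embryonic bodies, 7.57 and 6.97 in cardiac bodies, 8.30 and 8.48 at E17.5, 7.50 and 7.74 at P1 and 5.15 and 4.75 in adults. Both adult arrays lay below every other array. The signal of Aldoc fell by 3.44 ± 0.30 from E17.5 to adult (adjusted p = 3.32e-06), to an adult level not shown to be above background. Tpi1, triosephosphate isomerase, read 11.64 and 11.10 in cardiac bodies and 12.33 and 12.56 at E17.5 (-1.07 ± 0.25, adjusted p = 0.00706). Pgk1, the X-linked phosphoglycerate kinase, read 12.05 and 12.16 at E17.5, 11.45 and 11.38 at P1 and 10.34 and 10.27 in adults, with a fall of 1.11 ± 0.20 from P1 to adult (adjusted p = 0.00138). The call of Tpi1 ended without cardiac body replicate 2 or E17.5 replicate 2 (adjusted p up to 0.0996), and that of Aldoa without either ES array or embryonic body replicate 1 (adjusted p up to 0.186).

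Phosphoglycerate mutase showed the widest swing among the glycolytic enzymes proper. Pgam2, the muscle form, read 5.93 and 5.98 in ES cells, 5.66 and 5.15 in embryonic bodies, 10.52 and 9.59 in cardiac bodies, 11.13 and 11.04 at E17.5, 10.99 and 11.42 at P1 and 9.18 and 9.07 in adults. It rose by 4.65 ± 0.28 from embryonic to cardiac bodies (adjusted p = 5.95e-07) and fell by 2.08 ± 0.28 from P1 to adult (adjusted p = 0.000132), so that both adult arrays were below both cardiac body arrays. The fall was not even over its probe sets. Set against the gene's signal on the same array, 1 of its 4 probe sets, 10384018, was called higher in adults than at P1. That change was 2.29 ± 0.27 (limma adjusted p = 0.0019), where 13.5% of all probe sets were called. Such calls were not particular to Pgam2. In the same comparison 45 of the members' 284 tested probe sets were called (15.8%), in 21 genes, with changes from -3.44 (Tpi1) to 3.11 (Pdk1). Pgam1, the general form, read 11.26 and 11.22 in ES cells, 10.14 and 10.48 in embryonic bodies, 10.83 and 10.77 in cardiac bodies, 10.42 and 10.40 at E17.5, 8.69 and 9.22 at P1 and 9.58 and 9.40 in adults. It fell by 1.45 ± 0.20 from E17.5 to P1 (adjusted p = 0.00102), and its change of 0.53 ± 0.20 from P1 to adult did not pass (adjusted p = 0.0613). Set against the gene's signal, its probe sets 10463172 (-2.03 ± 0.21) and 10561303 (-2.46 ± 0.22) were called lower in adults than at P1. The Pgam2 to Pgam1 log ratio, set to 0 in ES cells, therefore stood at 4.54 in cardiac bodies, 7.54 at P1 and 4.92 in adulthood.

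The muscle enolase rose in cardiac bodies, and the general enolase fell in the hearts. Eno3, the muscle enolase, read 7.42 and 8.15 in ES cells, 7.84 and 8.98 in embryonic bodies, 10.41 and 9.67 in cardiac bodies, 10.96 and 10.93 at E17.5, 11.22 and 11.29 at P1 and 11.82 and 11.79 in adults. It was 2.25 ± 0.35 higher in cardiac bodies than in ES cells (adjusted p = 0.00116), and its change of 0.86 ± 0.35 from E17.5 to adult did not pass (adjusted p = 0.0716). By exon-level median Eno1 read 12.31 and 12.08 in ES cells, 11.57 and 11.54 at E17.5, 10.59 and 11.13 at P1 and 10.07 and 10.23 in adults, a fall of 1.41 ± 0.24 from E17.5 to adult (adjusted p = 0.000545). Eno2, the neuronal form, was at 4.67 to 6.76 on all arrays and was 0.92 ± 0.20 higher in cardiac bodies than at E17.5 (adjusted p = 0.00459), a call that ended without cardiac body replicate 2 or E17.5 replicate 1 (adjusted p up to 0.061). The 7 neuronal markers had a median of 5.55 and 5.33 in cardiac bodies and 4.69 and 4.85 at E17.5, and their part was not tested. Gpi1, by the same exon-level summary, ranged from 10.66 to 12.04 and was called by limma in no comparison, with an unadjusted p under 0.05 in 2.

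Pkm encodes pyruvate kinase of muscle and of most growing tissues, and its transcript is spliced with either of a pair of mutually exclusive exons that give the adult muscle form or the form of embryonic and growing cells. At the gene level the group means of Pkm spanned 1.40. They rested on 11.72 and 11.52 in ES cells, 10.86 and 11.40 in embryonic bodies, 11.29 and 11.53 in cardiac bodies, 11.17 and 11.09 at E17.5, 10.74 and 10.86 at P1 and 10.35 and 10.08 in adults. The gene-level fall from E17.5 to adult was 0.92 ± 0.20 (adjusted p = 0.00361), and that from P1 to adult 0.58 ± 0.20 (adjusted p = 0.0481) ended without any 1 of 10 arrays (adjusted p up to 0.238) and with the exon-level median (adjusted p = 0.0727). The splicing index, which subtracts the gene's log2 signal from that of one of its probe sets, set 1 probe set apart from the other 6. Probe set 10585938 read 9.03 and 8.69 in ES cells, 7.88 and 8.47 in embryonic bodies, 10.58 and 10.50 in cardiac bodies, 11.91 and 11.68 at E17.5, 11.19 and 11.50 at P1 and 10.97 and 10.18 in adults. Its index averaged -2.76 in ES cells, -2.96 in embryonic bodies, -0.87 in cardiac bodies, 0.66 at E17.5, 0.55 at P1 and 0.36 in adulthood, and no array of the cardiac bodies or hearts came as low as any array of the first 2 groups. Which Pkm exon each probe set covers is not given in the tables used here, so this probe set is not assigned to either splice form.

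A probe set was called at an adjusted p under 0.05 and an index change of at least 1, with a gene-level signal no lower than the median gene in both groups and a probe set signal no lower than the median probe set in at least 1 of them. The index of 10585938 was 1.88 ± 0.25 higher in cardiac bodies than in ES cells (adjusted p = 0.0434), the only call among 290 probe sets of the 30 genes tested in that comparison, where 0.104% of all probe sets were called. Against embryonic bodies the index change was 2.08 ± 0.25 (adjusted p = 0.0923), and against E17.5 hearts it was -1.54 ± 0.25 (adjusted p = 0.062), neither of them called. The call of 10585938 was absent whenever any 1 array was left out and with the median of the other probe sets as the gene level. In adult hearts the indices of 2 other Pkm probe sets were called: 10585933 was higher by 1.59 than at P1 (adjusted p = 0.0124) and the index of 10585939 changed by -1.08 (adjusted p = 0.0333). Against E17.5, 10585933 alone was called in adults, at 1.06 ± 0.31 (adjusted p = 0.0458), and that call was lost with the median of the other probe sets, with no level filter and without any 1 of 8 arrays. Calls with adult hearts were common over the whole array, 13.5% of all probe sets against P1 and 16.4% against E17.5, while the other comparisons had 0.0186% (embryonic bodies against ES cells), 0.00319% (cardiac against embryonic bodies), 0.104% (cardiac bodies against ES cells), 0.0% (P1 against E17.5) and 0.22% (cardiac bodies against E17.5). Of the members' probe sets 45 of 284 and 51 of 293 were called in those adult comparisons, 15.8% and 17.4%.

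**Figure D3:**
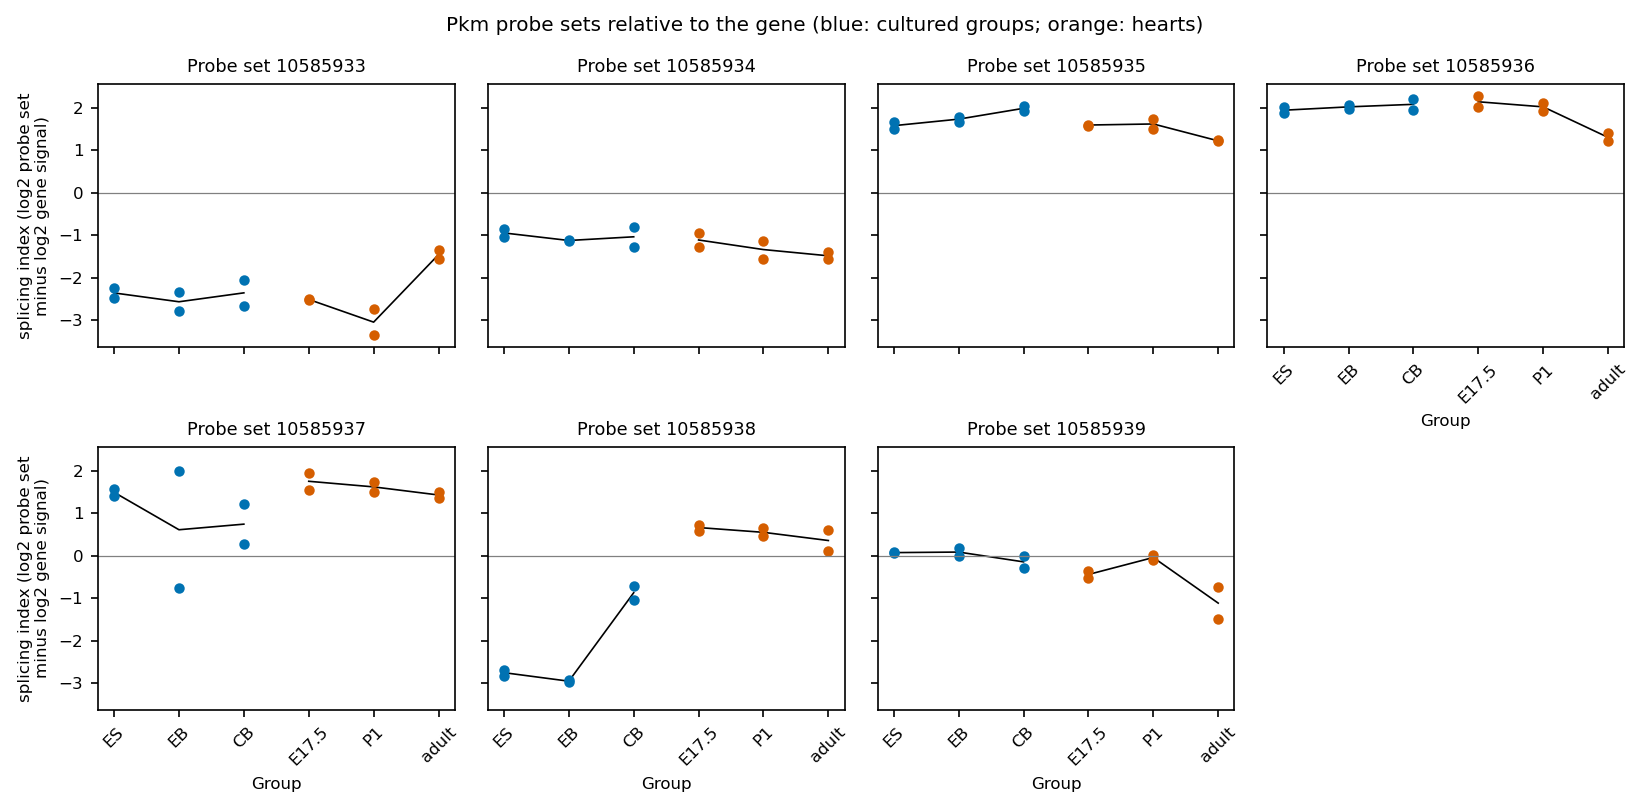
Splicing index (log2 probe set minus log2 gene) of the 7 Pkm probe sets, with points for arrays and lines for group means. The index of probe set 10585938 went from -2.76 in ES cells to 0.66 at E17.5.

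Lactate dehydrogenase interconverts pyruvate and lactate, with Ldha encoding the muscle and Ldhb the heart subunit. Ldhb read 7.87 and 8.08 in ES cells, 7.90 and 7.92 in embryonic bodies, 10.04 and 9.52 in cardiac bodies, 10.66 and 10.63 at E17.5, 10.66 and 10.88 at P1 and 10.50 and 10.67 in adults. It rose by 1.87 ± 0.19 between the bodies (adjusted p = 5.02e-05) and its changes between heart stages were 0.12 (P1 against E17.5), -0.18 (adult against P1) and -0.06 (adult against E17.5), none called. Ldha read 12.59 and 12.38 in ES cells, 12 and 12.33 in embryonic bodies, 12.11 and 11.74 in cardiac bodies, 12.46 and 12.49 at E17.5, 11.80 and 11.72 at P1 and 11.80 and 11.86 in adults. Ldha fell by 0.71 ± 0.19 at birth (adjusted p = 0.0459) and was 0.65 ± 0.19 lower in adults than at E17.5 (adjusted p = 0.0159). The Ldha to Ldhb log ratio, set to 0 in ES cells, was -0.26 in embryonic bodies, -2.37 in cardiac bodies and -2.68, -3.52 and -3.27 in the 3 heart stages. The Ldha fall at birth ended without any 1 of 7 arrays (adjusted p up to 0.223) and with the exon-level median (adjusted p = 0.22). The fall to adults ended without any 1 of the 4 arrays compared (adjusted p up to 0.0731) and with the exon-level median (-0.44, adjusted p = 0.249). Cardiac bodies were 0.87 ± 0.19 below E17.5 hearts in Ldhb (adjusted p = 0.00592), which ended without cardiac body replicate 2 (adjusted p = 0.0907), and the Ldha difference was -0.55 ± 0.19 (adjusted p = 0.0476). The latter ended without any 1 of 7 arrays (adjusted p up to 0.357), with quantile normalization (-0.32, adjusted p = 0.264) and with the exon-level median (-0.39, adjusted p = 0.365).

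Monocarboxylate transporters carry lactate and pyruvate across the membrane. Slc16a3 encodes MCT4, the exporter of glycolytic cells, and read 9.66 and 8.84 in ES cells, 8.41 and 9.17 in embryonic bodies, 9.30 and 8.83 in cardiac bodies, 9.70 and 9.72 at E17.5, 7.40 and 7.63 at P1 and 7.17 and 7.12 in adults. All postnatal arrays were below all culture and E17.5 arrays, and the fall of 2.19 ± 0.29 from E17.5 to P1 was the largest of any member at birth (adjusted p = 0.000846). Slc16a1 encodes MCT1, the transporter used for lactate uptake in the heart, and read 9.88 and 9.81 in ES cells, 12.14 and 10.86 in embryonic bodies, 10.26 and 10.04 in cardiac bodies and 10.09 to 10.75 in all hearts. It rose by 1.65 ± 0.31 to embryonic bodies (adjusted p = 0.00207) and fell by 1.35 ± 0.31 to cardiac bodies (adjusted p = 0.0128), while its changes between heart stages, -0.02, -0.54 and -0.56 in the same order as for Ldhb above, were not called. Its fall ended without embryonic body replicate 1 or either cardiac body array (adjusted p up to 0.0929). The embryonic body arrays differed by 1.28 in Slc16a1, and by more than 1 in 5 of the 30 members against 2.74% of all genes, and their red cell marker medians were 9.89 and 5.57.

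Among the pyruvate dehydrogenase kinases, which switch the complex off, Pdk2 rose through the heart stages while Pdk1 and Pdk3 fell. Pdk2, the form abundant in heart, read 6.20 and 6.10 in ES cells, 6.15 and 6 in embryonic bodies, 8.64 and 8.14 in cardiac bodies, 9.47 and 9.37 at E17.5, 10.67 and 11.34 at P1 and 12.04 and 12 in adults. From cardiac bodies on, each group lay wholly above the one before. Its steps were 2.31 ± 0.23 from embryonic to cardiac bodies (adjusted p = 3.28e-05), 1.59 ± 0.23 from E17.5 to P1 (adjusted p = 0.00147) and 1.02 ± 0.23 from P1 to adult (adjusted p = 0.00484). Pdk2 was the only member called higher at P1. Pdk1, a target of the hypoxia pathway, read 9.54 and 9.22 in ES cells, 7.33 and 8.56 in embryonic bodies, 8.80 and 8.75 in cardiac bodies, 9.66 and 9.66 at E17.5, 8.98 and 8.91 at P1 and 8.17 and 7.99 in adults, a fall of 1.58 ± 0.30 from E17.5 to adult (adjusted p = 0.00129). Pdk3 read 9.38 and 9.09 at E17.5, 8.49 and 8.62 at P1 and 6.02 and 6.59 in adults, a fall of 2.25 ± 0.23 from P1 to adult (adjusted p = 1.87e-05). The Pdk2 to Pdk1 log ratio, set to 0 in ES cells, was 2.85 in cardiac bodies, 2.99 at E17.5, 5.30 at P1 and 7.17 in adulthood. The last Pdk2 step was lost with the exon-level median.

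In adult hearts both subunits of the E1 component were lower than at E17.5, and the phosphatase of the complex was higher. Of the other measured components, Dlat fell by 0.48 ± 0.18 (adjusted p = 0.0492), while Dld (-0.56 ± 0.35, adjusted p = 0.243) and Pdhx (0.19 ± 0.20, adjusted p = 0.499) did not pass. Pdha1, the catalytic alpha subunit, read 11.78 and 11.74 at E17.5, 11.89 and 11.31 at P1 and 10.79 and 10.84 in adults (-0.95 ± 0.19 from E17.5 to adult, adjusted p = 0.00202). Pdhb, the beta subunit, read 8.46 and 8.74 in embryonic bodies and 9.53 on both cardiac body arrays (0.93 ± 0.18, adjusted p = 0.00518), and was 0.63 ± 0.18 lower in adult than in E17.5 hearts (adjusted p = 0.017), which ended without either E17.5 array or adult replicate 2 (adjusted p up to 0.152). Pdp1, the phosphatase that switches the complex back on, read 7.43 and 7.44 in cardiac bodies, 8.39 and 8.56 at E17.5, 9.02 and 8.41 at P1 and 9.65 and 9.54 in adults. Its adult arrays were above all others, with a rise of 1.12 ± 0.21 over E17.5 (adjusted p = 0.00131), a call lost with the exon-level median.

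**Figure D4:**
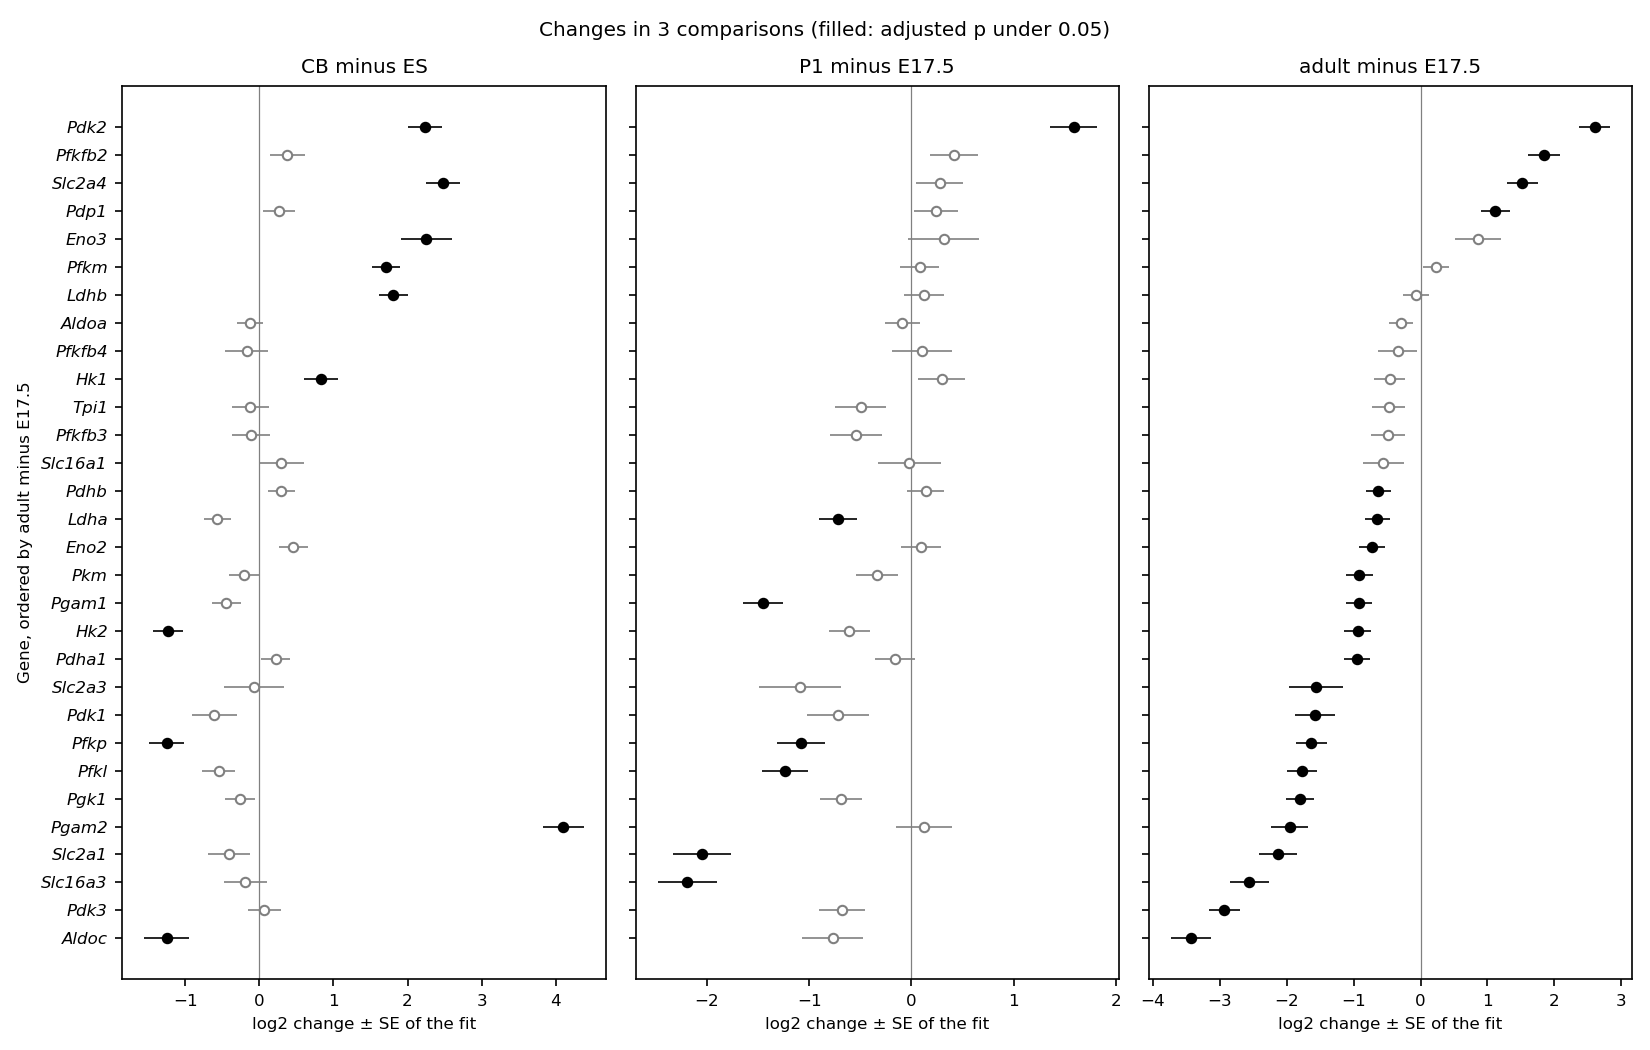
Log2 change (x axis) of each of the 30 genes in 3 panels (cardiac bodies against ES cells, P1 hearts against E17.5 hearts, and adult hearts against E17.5 hearts), with genes ordered by the last, filled symbols for calls at an adjusted p under 0.05 and bars for the standard error. At birth (P1 minus E17.5) the only filled symbol above 0 was Pdk2, at 1.59.

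Calls at the turn from E17.5 to P1 fell on transporters, phosphofructokinase, mutase, lactate dehydrogenase and a kinase of pyruvate dehydrogenase, and the promoters of these 7 genes are shown because they were the members called in the comparison with the smallest share of genes called. Each sequence is the 250 bases before a RefSeq transcript start on GRCm38.p6, 5′ to 3′ on the gene's strand, with capitals for ACGTG or GCGTG on either strand (CACGT and CACGC when read on the other). These letters are the core of the hypoxia response element, to which the HIF factors bind, and ACGTG is contained in the E-box CACGTG, where both strands match. The windows are Slc16a3 chr11:120948817-120949066 (+), Slc2a1 chr4:119108495-119108744 (+), Pgam1 chr19:41911621-41911870 (+), Ldha chr7:46845554-46845803 (+), Pfkl chr10:78009808-78010057 (-), Pfkp chr13:6648772-6649021 (-) and Pdk2 chr11:95041372-95041621 (-).
Slc16a3: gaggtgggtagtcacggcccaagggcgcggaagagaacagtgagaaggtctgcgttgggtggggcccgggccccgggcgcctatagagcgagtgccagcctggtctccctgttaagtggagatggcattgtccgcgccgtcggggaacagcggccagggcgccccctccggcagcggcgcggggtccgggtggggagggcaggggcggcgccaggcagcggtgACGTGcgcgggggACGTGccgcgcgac
Slc2a1: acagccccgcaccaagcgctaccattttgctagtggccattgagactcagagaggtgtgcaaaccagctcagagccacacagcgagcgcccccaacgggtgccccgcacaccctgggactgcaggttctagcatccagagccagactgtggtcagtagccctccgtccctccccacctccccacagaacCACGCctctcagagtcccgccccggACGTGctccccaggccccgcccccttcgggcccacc
Pgam1: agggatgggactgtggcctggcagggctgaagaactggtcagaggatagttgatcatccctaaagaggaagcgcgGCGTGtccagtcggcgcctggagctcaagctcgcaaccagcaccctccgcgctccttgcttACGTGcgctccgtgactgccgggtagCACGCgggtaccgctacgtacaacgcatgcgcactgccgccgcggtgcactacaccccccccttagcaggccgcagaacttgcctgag
Ldha: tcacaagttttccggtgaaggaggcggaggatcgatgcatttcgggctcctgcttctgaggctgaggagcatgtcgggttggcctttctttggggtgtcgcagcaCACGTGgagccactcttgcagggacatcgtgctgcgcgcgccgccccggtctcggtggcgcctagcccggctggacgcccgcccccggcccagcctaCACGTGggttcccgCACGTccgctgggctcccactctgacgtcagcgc
Pfkl: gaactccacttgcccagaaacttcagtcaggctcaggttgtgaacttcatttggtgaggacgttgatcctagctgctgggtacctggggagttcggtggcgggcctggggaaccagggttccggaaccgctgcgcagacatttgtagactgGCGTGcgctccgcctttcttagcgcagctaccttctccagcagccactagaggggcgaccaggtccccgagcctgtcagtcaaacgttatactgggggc
Pfkp: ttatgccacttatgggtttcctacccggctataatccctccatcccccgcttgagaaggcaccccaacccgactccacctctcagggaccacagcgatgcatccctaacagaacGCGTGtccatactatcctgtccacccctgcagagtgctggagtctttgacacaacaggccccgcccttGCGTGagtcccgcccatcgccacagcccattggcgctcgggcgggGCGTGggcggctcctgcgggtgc
Pdk2: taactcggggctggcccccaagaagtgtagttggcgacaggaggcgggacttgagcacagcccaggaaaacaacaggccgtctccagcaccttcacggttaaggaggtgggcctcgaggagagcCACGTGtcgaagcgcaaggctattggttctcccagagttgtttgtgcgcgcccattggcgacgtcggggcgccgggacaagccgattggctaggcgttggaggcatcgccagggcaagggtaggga

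All 7 windows held a match. Ldha had a count of 5, in which each E-box CACGTG was counted on both strands. Pgam1 and Pfkp had 3 matches each and no CACGTG, so the counts do not rank Ldha above them. The Slc16a3 pair began 27 and 14 bases before the start. Pdk2, which rose at birth, held CACGTG as well. The motif did not set these genes apart from the other members: of the 31 listed genes in the promoter table (Slc2a3, Slc2a4 and Pdp1 were not matched), 27 held ACGTG or GCGTG in at least 1 window, and 37 of their 50 windows did (74.0%), against 38.6% of 32851 promoter windows of the same length. CACGTG was in 12% of the members' windows against 6.02% of all, and TATAAA in 4.0% against 12.4%. The members' windows had a median GC content of 59.8% against 52.4% over all windows, and the part of base composition in these shares was not tested. A match is a description of letters and not a bound site.

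Genes around the pathway came from a separate list of 76, of which 68 were measured. Embryonic bodies against ES cells had 7 higher and 14 lower (20.6% of all genes were called), cardiac against embryonic bodies 7 and 1 (11.9%), and cardiac bodies against ES cells 5 and 6 (9.78%). From E17.5 to P1 7 rose and 2 fell (5.05%), from P1 to adult 16 rose and 13 fell (30.1%), and from E17.5 to adult 19 rose and 14 fell (35.9%). Cardiac bodies against E17.5 hearts had 15 higher and 12 lower (23.7%). Each change named in the following passed the same limma test unless stated. Some rest on group means under 6.05, not shown to be above background, so their fold is uncertain. These means are Slc2a12 and Slc16a12 in ES cells, Fbp2 in ES cells, embryonic bodies and E17.5 hearts, and Pdk4 in embryonic bodies. Gpd1 at E17.5, Nek2 in adults and Emb in all heart groups were also under 6.05.

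At birth the largest rise was in Pdk4, a kinase of pyruvate dehydrogenase induced by fasting and fatty acids, which read 8.43 and 8.27 at E17.5, 11.09 and 10.74 at P1 and 11.21 and 11.26 in adults (2.57 ± 0.22 from E17.5 to P1). Pdk4 therefore rose at birth beside Pdk2. Fbp2, the muscle fructose bisphosphatase, rose by 2.10 ± 0.20, and Nek2, a mitotic kinase, fell by 2.27 ± 0.17. Bpgm, which makes 2,3-bisphosphoglycerate in red cells, read 8.34 and 9.54 at E17.5 and 6.70 and 6.82 at P1 (-2.17 ± 0.30). The red cell markers given above with Slc2a1 moved in the same comparison, and their part in the Bpgm change was not tested. Later, Mpc1, a subunit of the mitochondrial pyruvate carrier, went from 9.08 and 9.63 at P1 to 12.02 and 11.93 in adults (2.62 ± 0.23). Gpd1, cytosolic glycerol-3-phosphate dehydrogenase, went from 6.34 and 6.72 to 10.35 and 9.91 (3.60 ± 0.20). Gfpt2 of the hexosamine pathway rose by 2.08 ± 0.27 from P1 to adult, and Txnip, a negative regulator of glucose uptake, fell by 2.08 ± 0.26. Txnip had risen by 1.36 ± 0.26 from E17.5 to P1 (adjusted p = 0.0101). Its change of -0.72 ± 0.26 from E17.5 to adult did not pass (adjusted p = 0.0501). Between E17.5 and adult the changes were 4.73 ± 0.20 for Gpd1, 3.22 ± 0.23 for Mpc1, 2.89 ± 0.22 for Pdk4 and -3.28 ± 0.17 for Nek2.

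In the cultures, Emb, a partner protein of monocarboxylate transporters, read 9.16 and 9.11 in ES cells, 12.35 and 11.13 in embryonic bodies, 8.76 and 9.11 in cardiac bodies and 4.23 to 5.34 in hearts. It was high in the embryonic bodies, as Slc16a1 was, and the first of their arrays read higher for both genes. Emb rose by 2.61 ± 0.38 and then fell by 2.81 ± 0.38. The other large changes to embryonic bodies were Slc2a12, a further glucose transporter (1.42 ± 0.19), Fbp2 (-1.39 ± 0.20) and Tigar, a fructose-2,6-bisphosphatase (-1.33 ± 0.18). For Fbp2 the means of both groups compared lay under the median gene, so neither is shown to be above background. Mpc1 (1.76 ± 0.23), Fbp2 (1.71 ± 0.20) and Pdk4 (1.41 ± 0.22) rose from embryonic to cardiac bodies. Between cardiac bodies and ES cells the largest were Gfpt2 (-1.69 ± 0.27), Slc16a12 (1.57 ± 0.33), Epas1, a hypoxia-inducible factor subunit (-1.22 ± 0.29), and Hif1a, another (0.92 ± 0.27). Cardiac bodies against E17.5 hearts differed most in Emb (3.93 ± 0.38), Bpgm (-2.36 ± 0.30), Pdk4 (-1.83 ± 0.22) and Gpd2, the mitochondrial glycerol-3-phosphate dehydrogenase (1.78 ± 0.20).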

How the data were processed

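Total RNA of 12 samples was measured on an Affymetrix mouse gene array and summarised at the gene and exon level. The deposited log2 values were made by the authors with RMA in Affymetrix Power Tools, per the submitters' processing notes (versions: not given in the sources used here), and were not normalized again. Probe sets were named from the platform annotation: 21789 of 35556 transcript clusters had 1 symbol, 1621 several and 12146 none. The genes and lists were chosen with earlier results of these data known.

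Where a gene had several clusters (1015 genes), the cluster with the most exon-level probe sets of that gene was used; this replaced the planned highest mean after the files were seen, because the highest Hk1 cluster held no probe set named Hk1. R 4.3.3 with limma 3.58.1 (lmFit, eBayes) gave a linear model of 6 group means with 6 residual degrees of freedom, 2 arrays a group, in 7 comparisons, with Benjamini-Hochberg adjustment over all genes. The number of arrays limits the precision. The splicing index was fitted over 197979 probe sets. Isozyme log ratios are descriptions with no test. The scripts were tested on simulated data. For each comparison, the up to 6 called members with the largest change, 7 preset members and up to 4 other pathway genes are named, and every other member is given by values or range. Alternatives were quantile normalization, a level filter, an intensity trend, other cluster and exon-level summaries, the replicate number as a block, and each array left out. Protein sequences were not analysed here, and cross-hybridisation with pseudogenes was not examined.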

Additional observations from a re-analysis of the deposited data

How the results depend on the processing

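The labels do not say what a replicate number shares. Deviations of same-numbered arrays correlated at -0.17 to 0.29 over 15 group pairs (median -0.04), with 2 above 0.1. These were E17.5 with P1 hearts (0.29) and ES cells with cardiac bodies (0.17). Such values cannot settle whether same-numbered arrays shared a batch. With the replicate block the members called numbered 14, 11, 10, 6, 13, 21 and 13 in the order of the 7 comparisons in the text, against 14, 11, 10, 7, 14, 21 and 15. Calls lost with it were Ldha from E17.5 to P1 (adjusted p = 0.0652), Pkm (0.0618) and Pdk1 from P1 to adult, and Ldha (0.0629) and Pgk1 for cardiac bodies against E17.5. The exon-level median gave 7 members called between embryonic bodies and ES cells against 14. Leaving out 1 array gave 6 to 15 members called in that comparison, 7 to 12 from embryonic to cardiac bodies, 7 to 11 for cardiac bodies against ES cells, 4 to 8 from E17.5 to P1, 10 to 15 from P1 to adult, 17 to 23 from E17.5 to adult, 4 to 18 for cardiac bodies against E17.5 and 27 to 29 in the F test. Counts moved by over 1.5 times without ES replicate 1 (6), ES replicate 2 (7) or embryonic body replicate 1 (9) in the first, without cardiac body replicate 1 (7) in the second, without E17.5 replicate 1 or 2 (4 each) in the fourth, and without cardiac body replicate 2 (4), E17.5 replicate 1 (8) or E17.5 replicate 2 (9) in the last. Calls that held in every setting run numbered 4 of 14, 6 of 11, 7 of 10, 4 of 7, 6 of 14, 15 of 21 and 3 of 15. Pkm probe sets called were 0 for cardiac bodies against ES cells with the replicate block, with the median of the other probe sets and in each fit with 1 array left out (0 to 0), against 1. With no level filter they were 1 for cardiac against embryonic bodies (0 in the text), 0 for adult against E17.5 (1 in the text) and 1 for cardiac bodies against E17.5 (0 in the text). With the highest-mean cluster they were 1 from P1 to adult (2 in the text) and 1 for cardiac bodies against E17.5. With the median of the other probe sets they were 1 from P1 to adult and 0 from E17.5 to adult, and with 1 array left out 0 to 2 and 0 to 1, and 0 to 0 for cardiac bodies against E17.5. The Hk1 changes with the highest-mean cluster, 0.046 between embryonic bodies and ES cells, -0.283, -0.237 and 0.127 for cardiac bodies against embryonic bodies, ES cells and E17.5, ran against the main values. With its highest-mean cluster, which held 0 exon-level probe sets of the gene, Pkm was called for cardiac bodies against E17.5 (0.675, limma adjusted p = 0.0321). The main Pkm change there was 0.281 (limma adjusted p = 0.399). The cause of these shifts was not tested.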
